A study of Arabidopsis thaliana with 12 samples.

Results

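The comparison described here sets siliques of *Arabidopsis thaliana* plants that overexpress the hemoglobin gene *AtHb1* against wild-type (WT) siliques at normal oxygen. It uses 6 of the 12 Affymetrix ATH1 arrays of the series, 3 AtHb1 control arrays and 3 WT control arrays, and 22746 of the 22810 probe sets on the array, the 64 control probe sets being set apart. Each value is a log2 signal after RMA, a method that corrects the background, gives the single probes of all arrays 1 distribution and then combines the probes of a set. WT was the accession Col-0, and the transgenic plants were Col-0 carrying *AtHb1* behind LeB4, a legumin promoter that is active in seeds. Both groups of plants were 45 days old, stood for 1 h in darkness and received ambient gas with 21% oxygen, and their siliques were in the mid phase of seed maturation, 11 to 12 days after pollination. The other 6 arrays hold the same genotypes after 1 h of darkness at 10.5% oxygen, called hypoxia, and serve here as a second, separate measurement of the genotype difference. Each replicate was a pool of about 70 to 80 siliques, and the transgenic plants were T3 plants of 1 line, L1-1, so a property of this line and the effect of the transgene cannot be told apart. A silique holds seeds and silique wall together. In such bulk samples, fewer cells of a type and less RNA per cell cannot be told apart.

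Class-1 plant hemoglobins bind oxygen very tightly and are induced when oxygen runs short. Together with nitrate reduction they take part in the turnover of nitric oxide, a signalling molecule. Seeds in the maturation phase fill with oil and storage protein and later make late embryogenesis abundant (LEA) proteins and dehydrins, hydrophilic proteins that protect cells during drying and that respond to abscisic acid (ABA).

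The transgene was read first. *AtHb1* (AHB1, AT2G16060) gave log2 signals of 6.14, 5.99 and 5.88 on the WT control arrays and 10.48, 12.06 and 11.93 on the AtHb1 control arrays. All 3 transgenic arrays lay far above WT, with replicate 1 the lowest of them, and the log2 fold change was 5.49 ± 0.30 (standard error, as in all values below with this sign), or 45.0-fold (limma, adjusted p = 5.20e-08). The other hemoglobin gene named here, *AHB2* (AT3G10520), of the class-2 type, is like *AtHb1* named only through the study's table of genes changed on these arrays. It read 6.83, 7.11 and 7.08 in WT and 5.15, 5.47 and 5.40 in AtHb1. The groups did not overlap, and *AHB2* was lower in AtHb1 by a log2 fold change of -1.67 ± 0.10 (limma, adjusted p = 9.83e-08). Under hypoxia the difference of *AHB2* was also -1.67, while that of *AtHb1* was 1.62, as the WT hypoxia arrays read 9.06, 9.07 and 9.14 for *AtHb1* where the AtHb1 hypoxia arrays read 10.65, 10.38 and 11.12. The change of the *AtHb1* difference between the oxygen levels was -3.87 (limma, adjusted p = 1.4e-04) and that of *AHB2* was -0.01.

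**Figure D1:**
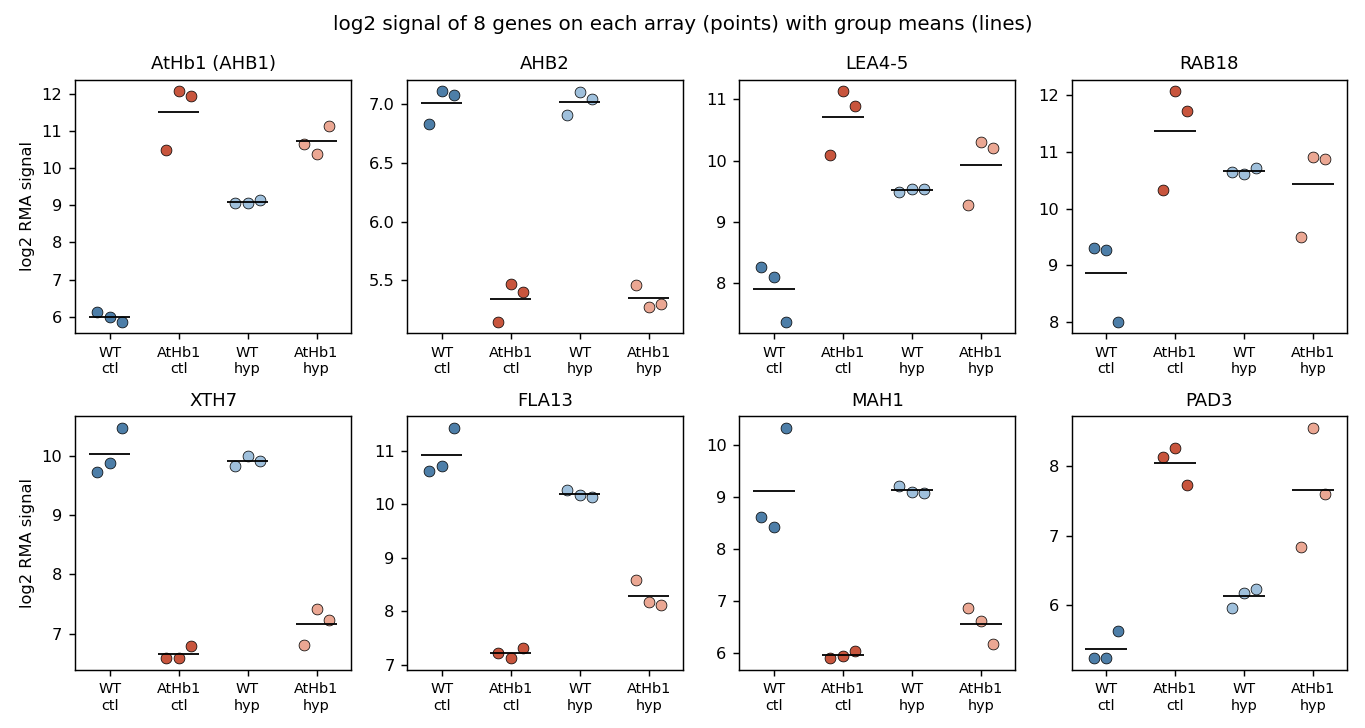
log2 RMA signal (vertical axis) of 8 genes in WT control, AtHb1 control, WT hypoxia and AtHb1 hypoxia, with 1 point per array, replicates 1 to 3 from left to right, and a line at each group mean. *AtHb1*, *LEA4-5*, *RAB18* and *PAD3* lie higher, and *AHB2*, *XTH7*, *FLA13* and *MAH1* lower, on every AtHb1 control array than on any WT control array, and the hypoxia groups lie closer together for *AtHb1*, *LEA4-5* and *RAB18*.

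At normal oxygen 494 probe sets were called different between the genotypes, which is 2.17% of those tested, a probe set being called at a limma adjusted p under 0.05 with a change over 2-fold. Of these, 273 were higher in AtHb1 (1.20% of all tested) and 221 lower (0.972%). The genes with the largest rises after *AtHb1* itself included genes of late seed maturation, stress and defence, and those with the largest falls included genes of the cell wall and the waxy surface. More than 4-fold changes were seen for 34 higher and 25 lower probe sets. Without the fold limit, 7558 probe sets (33.2%) passed the adjusted p, 17.5% higher and 15.7% lower, so smaller differences were widespread, while the median log2 fold change over all probe sets was -0.01. WT and AtHb1 values were fully separate for 264 of the 273 higher and 220 of the 221 lower probe sets, against 46.4% of all probe sets. Of the called probe sets, 15 higher and 9 lower ones carry no single gene name here. A further 126 higher and 113 lower ones are named only through the study's own table of changed genes, which was made from these arrays, so list counts are given first for genes that the array annotation names, and the genes named by the study are set apart and are not independent evidence.

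Several features of the arrays moved with the genotype. Correlations between arrays of a group were between 0.9932 and 0.9983. The array medians were 7.45 to 7.48 in WT control and 7.51 to 7.55 in AtHb1 control. Centring each array on its median gave 225 higher and 268 lower calls. WT control replicate 3 stood apart within its group: the 3 WT arrays had mean log2 signals of 7.46, 7.44 and 7.23 over the 273 higher probe sets and 9.13, 9.10 and 9.43 over the 221 lower ones. AtHb1 control replicate 1 was less clearly apart. It was the lowest array of its group for 147 of the 273 (53.8%, against 30.4% of all probe sets). The 3 AtHb1 arrays had means of 8.56, 9.05 and 8.82 over the 273 and 7.81, 7.76 and 7.87 over the 221. AtHb1 control replicate 2 was the lowest for only 22 of the 273 (8.06%, against 40.7% of all probe sets). Without WT control replicate 3 and AtHb1 control replicate 1, called below the 2 arrays that stood apart, 290 probe sets were called higher and 190 lower, a choice made after seeing the data. The mean 3' minus 5' signal of 6 pairs of control probe sets, a sign of RNA integrity and labelling, was 1.25 to 1.36 in WT control and 1.75 to 1.90 in AtHb1 control. The bioC hybridization control was 6.80 to 7.07 in WT control and 7.75, 9.19 and 9.18 in AtHb1 control. All AtHb1 arrays exceeded all WT arrays in both measures, so they cannot be told apart from the genotype. Of 32 pollen markers, 16 are named here, and their mean log2 signal was 6.59 to 6.65 in WT control and 5.73 to 6.06 in AtHb1 control. Beyond these alternative counts, the part of these features in the results was not tested. None of the 10 storage protein and oleosin genes chosen to check for filling seeds is named here, but *OLE3* and PAP85, genes of oil bodies and storage protein, read 13.43 to 13.52 and 12.69 to 13.08 in WT control. Photosynthesis genes, as markers of green tissue, had a mean of 11.51 to 11.71 in WT control and 11.31 to 11.43 in AtHb1 control. The 1 tapetum and 2 endosperm markers named here were below 6 in all groups.

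**Figure D2:**
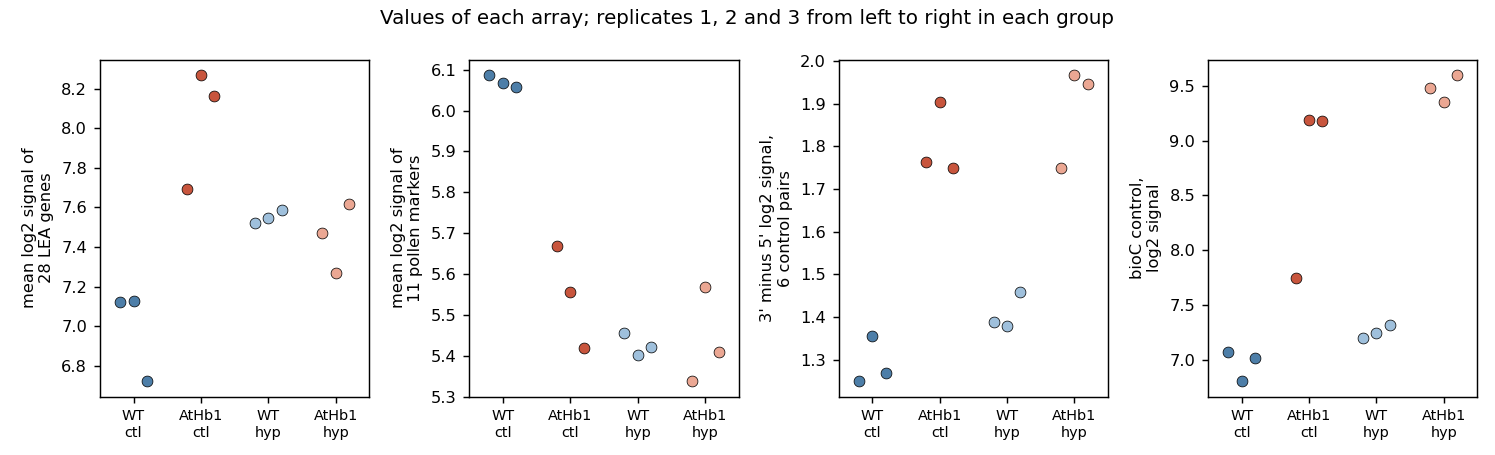
Mean log2 signal of 28 LEA genes, mean log2 signal of 11 pollen markers named by the annotation, mean 3' minus 5' log2 signal of 6 pairs of control probe sets, and log2 signal of the bioC control, with 1 point per array in the 4 groups (ctl, control; hyp, hypoxia). WT control replicate 3 has the lowest LEA mean (6.72), and the last 2 measures are higher on every AtHb1 array than on any WT array.

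Many LEA genes were higher in AtHb1 at normal oxygen. Of the 28 LEA genes that the annotation names, 14 were called higher (50.0%, against 1.20% of all probe sets) and 0 lower, with a median log2 fold change of 1.02 against -0.01 for all probe sets. At an adjusted p under 0.05 alone, 21 were higher and 1 was lower, against 17.5% and 15.7% of all probe sets. *LEA4-5* (AT5G06760), a group-4 LEA gene, read 8.26, 8.11 and 7.38 in WT and 10.10, 11.13 and 10.88 in AtHb1. The groups were well apart, with WT replicate 3 and AtHb1 replicate 1 lowest in their groups, and the log2 fold change was 2.79 ± 0.29 (limma, adjusted p = 7.94e-06), or 6.91-fold. AT3G17520, another LEA gene, read 8.29, 8.37 and 6.50 in WT and 9.42, 11.18 and 10.83 in AtHb1, a log2 fold change of 2.76 ± 0.46 (limma, adjusted p = 3.37e-04). Its arrays did not overlap but spread over almost 2 log2 units in each genotype. AT5G44310 was tighter, with 7.36, 7.49 and 6.62 in WT and 9.42, 10.08 and 9.85 in AtHb1, and a log2 fold change of 2.63 ± 0.26 (limma, adjusted p = 5.54e-06). The smallest called rise of the list was that of *DI21* (AT4G15910), a drought-induced gene, at 1.13. All 14 called members had groups that did not overlap, as had 264 of all 273 probe sets called higher. Members that were not called included *COR47*, a cold-induced dehydrin gene, at 0.91, *XERO2*, another dehydrin gene, at 0.21, and AT5G38760, a LEA-like gene, at -0.57, the member lower at an adjusted p under 0.05. The mean log2 signal of the 28 genes was 6.72 to 7.13 on the WT control arrays and 7.69 to 8.27 on the AtHb1 control arrays. Without the 2 arrays that stood apart, 13 members were called higher, *DI21* (0.99) missing the limit.

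Of 11 further LEA genes named only through the study's table of changed genes, 8 were called higher (72.7%, against 1.20% of all probe sets), a share that this way of naming raises. *SMP1* (AT3G12960), a seed maturation protein gene, had the largest rise after *AtHb1* under the naming rule. It read 5.66, 5.56 and 4.90 in WT and 7.46, 9.65 and 9.40 in AtHb1, a log2 fold change of 3.46 ± 0.42 (limma, adjusted p = 2.89e-05). *RAB18* (AT5G66400), the ABA-induced dehydrin gene, read 9.30, 9.26 and 8.00 in WT and 10.33, 12.07 and 11.73 in AtHb1, a log2 fold change of 2.52 ± 0.44 (limma, adjusted p = 5.30e-04). Both genes had AtHb1 replicate 1 nearest to WT. *EM1* (AT3G51810), a group-1 LEA gene, had overlapping groups, with 6.42, 6.56 and 5.11 in WT and 6.28, 9.31 and 9.41 in AtHb1, and its call (2.30, adjusted p = 0.0246) was lost without AtHb1 control replicate 2 (1.82), AtHb1 control replicate 3 (1.77) or WT control replicate 3 (1.84).

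**Figure D3:**
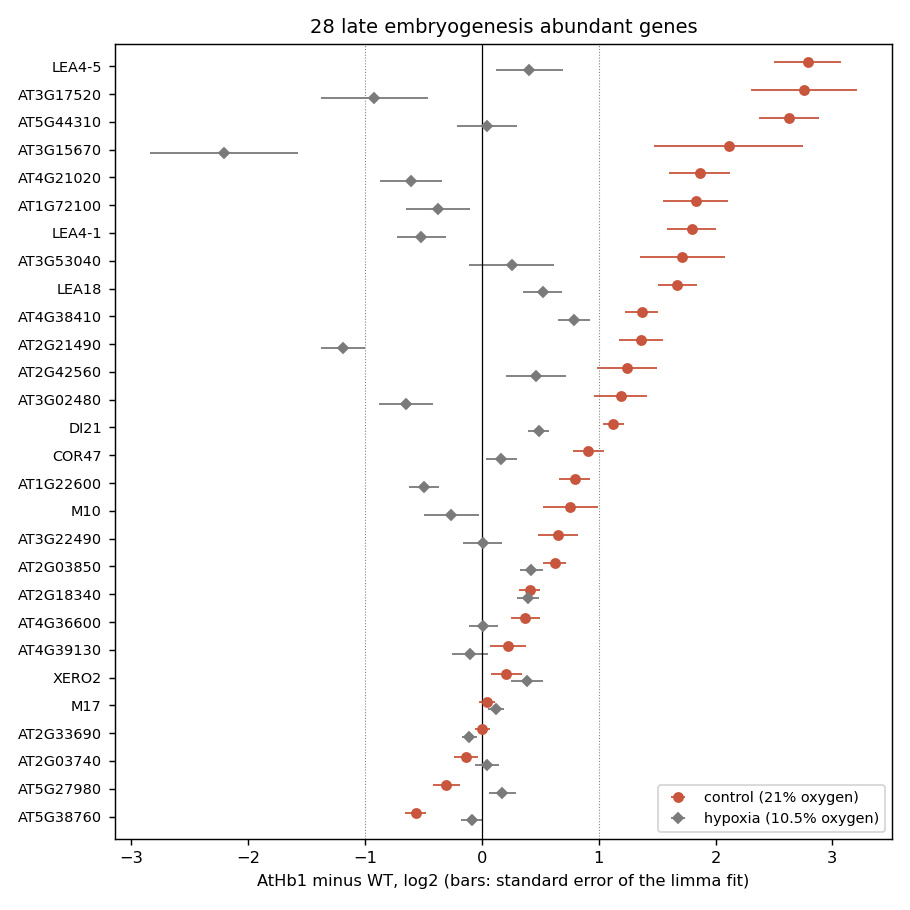
log2 fold change of AtHb1 against WT (horizontal axis) for the 28 LEA genes named by the annotation, at control (circles) and under hypoxia (diamonds), with bars for the limma standard error, a solid line at 0 and dotted lines at the 2-fold limit. At control 14 members lie beyond the upper limit and 0 beyond the lower one, whereas under hypoxia 0 are called higher and 2 lower (0.791% and 0.950% of all probe sets).

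Other genes of maturing seeds were higher in part. Of 9 storage and oil body protein genes named by the annotation, 2 were called higher (22.2%, against 1.20% of all probe sets) and 0 lower, with a median of 0.63. AT2G18540, a vicilin-like storage protein gene, read 5.85, 5.98 and 5.45 in WT and 7.43, 7.37 and 7.25 in AtHb1 (log2 fold change 1.59, limma adjusted p = 3.72e-06). The oleosin gene AT2G25890 had a log2 fold change of 1.23, which fell to 0.98 without WT control replicate 3 and then missed the 2-fold limit, and the oleosin gene *OLE3* had -0.08. The steroleosin genes *HSD5* (1.25) and *HSD1* (1.01), named by the study, were also called, and both missed the limit without WT control replicate 3, at 0.996 and 0.80, as did *HSD1* without AtHb1 control replicate 2 (0.97) or replicate 3 (0.88). The glyoxylate cycle turns stored lipid into sugar. Its genes *ICL* (isocitrate lyase) and *MLS* (malate synthase, named by the study) had log2 fold changes of 1.23 and 1.86, with WT values of 8.65, 8.40 and 7.83 against 9.31, 9.71 and 9.55 in AtHb1 for *ICL*, and *ICL* just missed the limit (0.997) without WT control replicate 3. None of the 4 seed maturation regulators was called, *EEL* and *BZIP53* being named by the annotation and the other 2 by the study, at log2 fold changes of 0.95 for *EEL*, 0.87 for *DOG1*, 0.39 for *BZIP53* and 0.29 for *LEC2*, all 4 at an adjusted p under 0.05 in limma. That of *LEC2* (0.0425) rose above 0.05 under several alternatives, to 0.0863 with arrays centred on the median and 0.163 without AtHb1 control replicate 3. *EEL* and *BZIP53* encode bZIP factors of maturation genes, *DOG1* is the main dormancy gene, and *LEC2* encodes an embryo regulator. Of 26 ABA genes listed, 6 are named here, all through the study's table of changed genes, which raises their share of calls. Of these 6, 3 were called higher (50.0%, against 1.20% of all probe sets). They were *NCED4* at 1.60, *RD29B* at 1.57 and *RD26* at 1.11, the last missing the limit without WT control replicate 3 (0.89).

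The small cysteine-rich peptides of the GASA family, which respond to gibberellin, split in direction. *GASA2* (AT4G09610) read 7.08, 6.91 and 5.88 in WT and 7.23, 10.48 and 10.17 in AtHb1 (log2 fold change 2.67 ± 0.72, limma adjusted p = 0.0105). Replicate 1 of AtHb1 stood only just above WT, and the call was lost without AtHb1 control replicate 2 (adjusted p = 0.0589) or replicate 3 (adjusted p = 0.0519). *GASA3* had 1.97 with overlapping groups and lost its call without AtHb1 control replicate 2 (1.69), AtHb1 control replicate 3 (1.68) or WT control replicate 3 (1.16). *GASA6* (AT1G74670) went the other way, with 10.88, 11.12 and 11.24 in WT and 8.98, 8.98 and 9.15 in AtHb1, a log2 fold change of -2.05 ± 0.09 (limma, adjusted p = 1.12e-08), and *GASA1* had -1.37. These 4 genes are named by the study. Of the other genes among the highest 20, 5 are given no role here: AT2G19320 (2.56), AT1G19020 (2.48), AT5G66780 (2.36), AT2G21820 (2.34) and AT2G15960 (2.25). AT2G15960 was among the steadiest, at 7.86, 7.63 and 7.61 in WT and 10.24, 9.93 and 9.69 in AtHb1. Wall-linked proteins were also found there. *CWLP* (AT3G22120), a cell wall-plasma membrane linker gene, read 8.15, 7.97 and 7.58 in WT and 10.29, 10.31 and 10.26 in AtHb1 (log2 fold change 2.38, adjusted p = 5.95e-08). *GRP-3*, which encodes a glycine-rich partner of a wall-associated kinase, had 2.31, and *PCR2*, a gene of zinc and cadmium resistance, had 2.52 with AtHb1 arrays spread from 6.49 to 9.31. AT5G52750, for a protein of a heavy metal-binding family, had 2.32.

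Several of the genes that Arabidopsis induces in many organs when oxygen falls were higher in AtHb1 at normal oxygen. Of the 24 core hypoxia genes named by the annotation, 5 were called higher (20.8%, against 1.20% of all probe sets) and 0 lower. At an adjusted p under 0.05 alone 15 of the 24 were higher (against 17.5% of all probe sets) and 1 was lower, and the median log2 fold change was 0.42. AT4G33560, a wound-responsive family gene, read 7.05, 6.73 and 6.53 in WT and 8.62, 8.51 and 8.31 in AtHb1 (log2 fold change 1.71 ± 0.14, limma adjusted p = 1.32e-06). AT4G24110, of unknown function, had 1.54, AT4G10270, a wound-induced family gene, had 1.31, AT3G10020, of unknown function, had 1.25 and AT4G27450, of an aluminium-induced family, had 1.02. The groups of all 5 genes were apart, as were those of 264 of all 273 probe sets called higher. For scale, the WT arrays at hypoxia read 10.87, 10.78 and 10.69 for AT4G33560, above each AtHb1 control array, but this second comparison shares the WT control arrays and is given as values only. Among 15 core genes named by the study, 3 were called: the stearoyl-acyl carrier protein desaturase gene AT1G43800 (2.28) and the plant cysteine oxidase genes *PCO1* (1.04) and *PCO2* (1.01), whose enzymes use oxygen to mark hypoxia regulators for breakdown. AT1G43800 read 6.92, 6.33 and 6.49 in WT and 8.92, 8.77 and 8.89 in AtHb1, against 10.15, 10.24 and 10.26 in WT hypoxia. *PCO1* missed the fold limit without AtHb1 control replicate 1 (0.93) or WT control replicate 3 (0.97), *PCO2* without AtHb1 control replicate 1 (0.98) or WT control replicate 2 (0.89), and AT4G27450 without the same arrays as *PCO2* (0.97 and 0.997). The fermentation genes stayed under the 2-fold limit. *ADH1* (alcohol dehydrogenase) had 0.83 and *PDC1* (pyruvate decarboxylase) 0.73, both with groups apart and with adjusted p-values of 1.52e-05 and 5.50e-05 in limma. *PDC2* had 0.04, *HRE2*, a hypoxia factor gene, had 0.07, and *ALAAT1* (alanine aminotransferase) had -0.54.

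Genes of defence and of stress hormones were among the largest rises, all but 2 of those below named by the study. The study's table of changed genes chose those, which raises their shares of calls, and 1.20% of all probe sets were called higher. *PAD3* (AT3G26830), for the last step of the antimicrobial compound camalexin, read 5.23, 5.23 and 5.62 in WT and 8.13, 8.26 and 7.73 in AtHb1, which is 6.42-fold (limma, adjusted p = 1.30e-05). *CYP79B2*, for an early step of the same pathway, had 1.16. *CORI3* (AT4G23600), a jasmonate-induced cystine lyase gene, read 6.43, 6.41 and 7.06 in WT and 8.59, 9.64 and 9.24 in AtHb1 (log2 fold change 2.53 ± 0.23). *VSP1*, the jasmonate-induced vegetative storage protein gene, read by a probe set of the type that can match near-identical genes, was called at 2.42 (adjusted p = 0.0073), but 1 array decided the spread: WT read 9.12, 9.19 and 12.60, and AtHb1 12.72, 12.83 and 12.62. WT replicate 3 thus nearly equalled the AtHb1 arrays, and the adjusted p was 0.0504 when limma allowed for a variance trend and outliers. Of 12 jasmonate genes named by the study, 2 were called higher (16.7%) and 10 were not called. The salicylate-induced genes *PR5* and *PR1* had 1.40 and 1.34 and *PNP-A*, a natriuretic peptide gene, had 1.11, and the last 2 missed the limit without AtHb1 control replicate 2 (0.89 and 0.99). Of 6 salicylate genes named by the study, 3 were called higher (50.0%). Another 2 of the 6 had negative values, down to -0.94, and 1 was lower at an adjusted p under 0.05. Of 10 calcium signalling genes named by the annotation, 2 were called higher, AT5G39670 (1.34) and *CML40* (1.18), both for calmodulin-like calcium-binding proteins, and the list's median was 0.18. *CML40* missed the limit (0.99) without AtHb1 control replicate 2. *TCH3*, a touch-induced calmodulin-like gene named by the study, read 7.02, 7.25 and 8.43 in WT and 9.87, 9.89 and 9.67 in AtHb1 (2.24). Of 4 calcium signalling genes named by the study, 1 was called higher (25.0%), and 1, at -0.53, was lower at an adjusted p under 0.05. The starvation genes *KFB20L* (1.20), *BZIP1* (1.20) and *DRM2L* (1.09), 3 of 7 named by the study (42.9%), were called higher. So were the heat shock genes *HSP17.4* (1.25) and *HSP70* (1.10), 2 of 5 named by the study (40.0%), while 0 of 7 heat shock genes named by the annotation were called. Of the called starvation and heat shock genes, *BZIP1* (0.99) and *HSP17.4* (0.95) missed the limit without AtHb1 control replicate 2, *HSP70* (0.99) without WT control replicate 3 and *DRM2L* (0.93) without AtHb1 control replicate 1. Among annotation-named genes, 0 were called of 4 jasmonate, 2 salicylate, 2 ethylene, 4 gibberellin and 2 camalexin and glucosinolate genes, of 6 genes of alternative respiration and NADPH oxidases, 3 of sugar starvation, 2 of fatty acid and oil synthesis, 2 of RNA silencing, 3 of the cell cycle and 1 of the circadian clock. *KCS17*, a gene of very long chain fatty acid synthesis named by the study, was called at 1.02 with overlapping groups, and missed the limit without AtHb1 control replicate 1 (0.88), AtHb1 control replicate 2 (0.83), WT control replicate 3 (0.71) or both arrays that stood apart (0.56).

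Among the largest falls were those of genes that build and loosen the growing cell wall. Xyloglucan endotransglucosylases (XTH) cut and rejoin xyloglucan, expansins loosen the wall, and fasciclin-like (FLA), arabinogalactan (AGP) and proline-rich (PRP) proteins sit in it. *XTH6* (AT5G65730) read 9.24, 9.01 and 10.32 in WT and 5.59, 5.62 and 6.07 in AtHb1, a log2 fold change of -3.76 ± 0.24 (limma, adjusted p = 1.34e-07), and *XTH7* (AT4G37800) read 9.72, 9.88 and 10.46 against 6.59, 6.60 and 6.80 (-3.36). In both, WT replicate 3 was the highest array and the groups were far apart. Of the XTH genes named by the study, 5 of 8 were called lower (62.5%, against 0.972% of all probe sets) and 1, *XTH25* (2.60), higher (12.5%, against 1.20%). The study's table of changed genes chose these 8, which raises both shares. The other 3 lower ones were *XTH4* (-1.88), *XTH24* (-1.81) and *XTH8* (-1.04), of which *XTH8* missed the limit without AtHb1 control replicate 2 (-0.96) or WT control replicate 3 (-0.90). *XTH25* had overlapping groups, with 8.12, 8.41 and 5.82 in WT and 7.64, 11.30 and 11.20 in AtHb1. Its call was lost in the fit of the 6 control arrays alone (adjusted p = 0.0607) and without WT control replicate 3 (1.78), AtHb1 control replicate 2 (1.97) or AtHb1 control replicate 3 (2.02), and just lost without WT hypoxia replicate 1, 2 or 3 (adjusted p = 0.0515, 0.0512 and 0.0517 in limma). The 10 XTH genes named by the annotation had 0 calls, with a median of -0.26 and a range of -0.79 to 0.14.

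Of 18 expansin genes named by the annotation, 3 were called lower (16.7%, against 0.972% of all probe sets) and 0 higher, with a median of -0.32, and 9 were lower at an adjusted p under 0.05 alone, against 15.7% of all probe sets. The called members were *EXPB3* (-1.43), *EXLB1* (-1.43) and *EXPA8* (-1.36). *EXLB1* (AT4G17030), an expansin-like gene, read 10.75, 10.84 and 10.72 in WT and 9.61, 9.02 and 9.40 in AtHb1, with the groups apart (limma, adjusted p = 3.93e-06). Among 4 expansins named by the study, *EXPA10* (-2.27), *EXPA6* (-1.37) and *EXPA1* (-1.03) were called lower (75.0%, against 0.972% of all probe sets), a share that this way of naming raises. *EXPA1* missed the limit without WT control replicate 3 (-0.88) or AtHb1 control replicate 2 (-0.97). Without the 2 arrays that stood apart, 3 annotated expansins were called lower.

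Of 42 arabinogalactan and proline-rich wall protein genes listed, 10 are named here, all only through the study's table of genes changed on these arrays. Of these, 9 were called lower (90.0%, against 0.972% of all probe sets) and 1, *AGP31* (1.07), higher, the last missing the limit (0.96) without WT control replicate 3. Because that table chose them, a high share of calls was likely from the start, and the other listed genes were not read. *FLA13* (AT5G44130) read 10.63, 10.71 and 11.43 in WT and 7.21, 7.12 and 7.32 in AtHb1, which is 13.0-fold lower (limma, adjusted p = 1.12e-08). *PRP2* (AT2G21140) read 10.81, 10.80 and 11.81 in WT and 7.86, 8.03 and 8.06 in AtHb1 (-3.16). Lower members of the same families included *FLA12* (-1.58), *AGP22* (-1.28), *FLA11* (-1.27) and *FLA2* (-1.16), the last missing the limit (-0.92) without WT control replicate 3. Genes of the secondary wall, the rigid layer laid down after growth, were lower too: the laccase genes *LAC4* (-1.49) and *LAC17* (-1.35), which act in lignin formation, *IRX6* (-1.12), for a COBRA-like wall protein, and the cellulose synthase gene *CESA7* (-1.11), all 4 named by the study. *LAC4* read 10.24, 10.17 and 10.26 in WT and 8.60, 8.63 and 8.97 in AtHb1. Of 9 cellulose and hemicellulose synthase genes named by the annotation, 1 was called lower (11.1%, against 0.972% of all probe sets), the mannan synthase-like gene *CSLA1* (-1.31), and the median was -0.16. The related *CSLA9*, named by the study, had -1.80. *CSLA1* missed the limit (-0.84) without the 2 arrays that stood apart. SAUR genes are linked to auxin and cell expansion. The SAUR gene AT2G21220 read 10.73, 10.51 and 11.23 in WT and 7.32, 7.20 and 7.71 in AtHb1, 10.7-fold lower.

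Several genes of cuticular wax, which seals the outer surface of the silique, were lower in AtHb1. *MAH1* (AT1G57750), for the midchain alkane hydroxylase that makes secondary alcohols and ketones, read 8.61, 8.42 and 10.34 in WT and 5.89, 5.93 and 6.04 in AtHb1. WT replicate 3 lay almost 2 log2 units above the other WT arrays, and the log2 fold change was -3.17 ± 0.35 (limma, adjusted p = 1.30e-05). *CER1*, for alkane formation, is the study's name for AT1G02200 (-2.31) and AT1G02205 (-1.27), 2 loci read by separate probe sets, and the call of AT1G02205 was lost (-0.94) without the 2 arrays that stood apart. *CER4*, for primary alcohols, had -2.03, and *LTPG2*, for a membrane-anchored lipid transfer protein, had -1.59. These genes are named by the study. Of the 4 members named by the annotation, 2 were called lower (50.0%, against 0.972% of all probe sets), with a median of -0.35 over the 4. They were AT2G45180, a lipid transfer-like gene (-2.75), and *WSD1*, a wax ester synthase gene (-1.74). The other 2, the lipid transfer-like genes AT3G58550 (1.33, adjusted p = 0.109 in limma) and AT2G18370 (1.05, adjusted p = 0.137), had higher means in AtHb1 and did not pass. Under hypoxia all 4 members were called lower, against 0.950% of all probe sets. *WSD1* read 9.32, 9.45 and 9.75 in WT and 7.50, 7.73 and 8.06 in AtHb1. Other members of the lowest 20 were the acid phosphatase-like gene AT1G04040 (-2.89), *DGR2*, a gene of a wall-associated protein family (-2.29), the peroxidase gene AT5G51890 (-2.27), the lysophospholipase-like gene AT3G15650 (-2.24), the lipase-like genes AT1G29670 (-2.22) and AT4G28780 (-2.07), and the germin-like gene *GER1* (-2.19). AT1G04040 read 9.66, 9.75 and 10.34 in WT and 6.81, 7.16 and 7.11 in AtHb1. The bHLH gene AT3G07340 (-2.31), AT1G70270 (-2.29), of unknown function, and AT5G50915 (-2.08) complete the group, the last at 10.01, 10.14 and 10.27 in WT and 8.13, 8.13 and 7.91 in AtHb1.

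**Figure D4:**
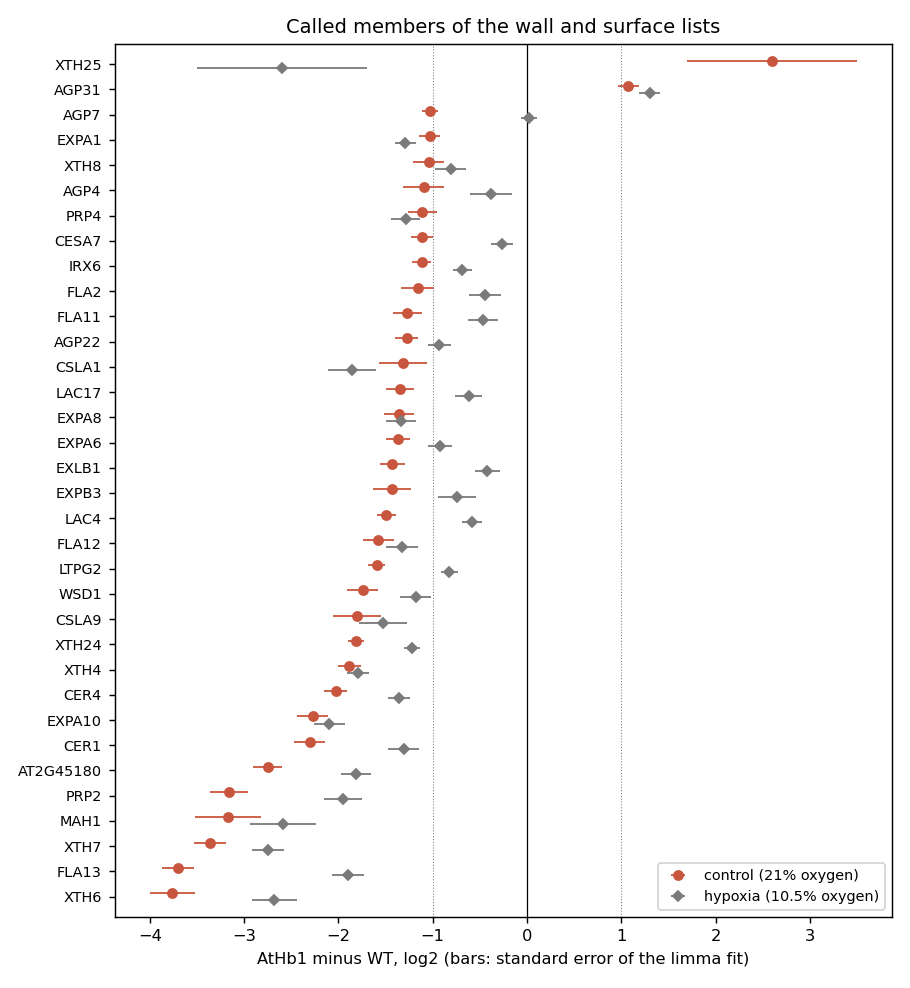
log2 fold change of AtHb1 against WT (horizontal axis) for the 34 called members of 6 wall and surface lists, at control (circles) and under hypoxia (diamonds), with bars for the limma standard error, a solid line at 0 and dotted lines at the 2-fold limit. At control 32 members were called lower and 2 higher, and 18 of the 32 were also called lower under hypoxia, against 0.950% of all probe sets. The members were chosen by their call at control, and 28 of the 34 are named only through the study's table of changed genes.

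Water channel, nitrogen and photosynthesis genes moved in both directions, with called members lower. Of 34 aquaporin genes listed, 8 are named here, all through the study's table of changed genes, which raises their share of calls. Of these 8, 4 were called lower (50.0%, against 0.972% of all probe sets): *PIP2;6* (-2.03), of the plasma membrane, *TIP2;1* (-1.58) and *TIP1;2* (-1.04), of the vacuole, and *NIP6;1* (-1.06), a boron channel. The seed vacuole aquaporin genes *TIP3;1* (0.71) and *TIP3;2* (0.70) were higher at an adjusted p under 0.05 but not called. *PIP2;6* (AT2G39010) read 10.51, 10.59 and 10.71 in WT and 8.57, 8.47 and 8.68 in AtHb1 (limma, adjusted p = 8.10e-09). *TIP1;2* and *NIP6;1* missed the limit without WT control replicate 3 (-0.99) and AtHb1 control replicate 1 (-0.94), respectively. Nitrate is reduced by nitrate reductase (*NIA2*) and nitrite reductase (*NIR1*), both named by the study. *NIR1* (AT2G15620) read 8.34, 8.50 and 8.79 in WT and 7.44, 7.21 and 7.37 in AtHb1 (-1.20, adjusted p = 1.90e-06), and *NIA2* had -1.09, or -0.80 without AtHb1 control replicate 1 and -0.89 without WT control replicate 3, where it missed the limit. *ASPGB1* (AT3G16150), an asparaginase gene named by the annotation, read 10.75, 10.69 and 10.74 in WT and 9.06, 9.19 and 9.30 in AtHb1 (-1.54). The other 2 annotated members of the nitrogen list, the transcription factor gene *HHO2* (0.94) and the asparaginase gene *ASPGA1* (0.21), were higher at an adjusted p under 0.05 but not called, and the list's median was 0.21. None of the 10 photosynthesis genes named by the annotation was called, with a median of -0.03, and at an adjusted p under 0.05 alone 2 were higher, *LHCB4.2* (0.59) and *PSAE1* (0.26), and 4 lower. The carbonic anhydrase gene *CA1* (-1.40) and the photorespiration list's *SHM4* (-1.48) and *GOX2* (-1.18), for a serine hydroxymethyltransferase and a glycolate oxidase, were named by the study and called lower. The last 2 were read by probe sets of the type that can match near-identical genes. Of 5 photorespiration genes named by the annotation, 0 were called, with a median of -0.25. At an adjusted p under 0.05 alone 1 of these 5 was lower, against 15.7% of all probe sets.

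Genes of the plastid genome were looked at after their values were seen, because *psbH*, a photosystem II subunit gene, was among the lowest 20. It read 9.92, 9.57 and 9.72 in WT and 7.84, 7.30 and 7.81 in AtHb1 (-2.08, limma adjusted p = 2.97e-06). Of 69 plastid-encoded genes, 8 were called lower (11.6%, against 0.972% of all probe sets) and 3 higher, with a median of -0.06. At an adjusted p under 0.05 alone 22 of the 69 were lower and 14 higher, against 15.7% and 17.5% of all probe sets. Of the 20 photosystem genes among the 69, 6 were called lower (30.0%) and 1 higher, with a median of -0.28. The other genes called lower were *ndhA*, of the NADH dehydrogenase-like complex, and *rpl22*, of the ribosome, which missed the limit (-0.99) without AtHb1 control replicate 2.

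Markers of other cell types that were called at normal oxygen were all lower. Of the 11 pollen markers named by the annotation, 2 were called lower (18.2%, against 0.972% of all probe sets) and 0 higher, with a median of -0.34: the polygalacturonase gene AT3G07820 (-1.45) and the pectate lyase gene AT3G01270 (-1.16). AT3G07820 read 7.27, 7.21 and 7.21 in WT and 6.17, 5.78 and 5.41 in AtHb1. AT3G01270 just missed the limit (-0.998) without AtHb1 control replicate 3. Of 5 named by the study, 3 were called lower (60.0%, a share that this way of naming raises), AT1G02790 (-1.42), *AGP11* (-1.31) and *AGP6* (-1.26). Over all 16 pollen markers named here WT control was the highest of the 4 groups, and under hypoxia their mean was 5.76 to 5.78 in WT and 5.64 to 5.96 in AtHb1. Of 4 seed coat genes named by the annotation, 1 was called lower (25.0%, against 0.972% of all probe sets), *DFR* (-1.08), which acts in the pathway to proanthocyanidins. The 1 seed coat gene named by the study had -0.05 at control and 1.00 under hypoxia, where it was called higher. *DFR* read 11.59, 11.59 and 11.40 in WT and 10.54, 10.35 and 10.47 in AtHb1, and *BAN*, a later enzyme gene of that branch, had -0.89.

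The same genotype contrast under hypoxia uses other arrays and so bears on which differences recurred. Many of the rises at normal oxygen did not, and most of the falls did in sign. The 273 higher probe sets had a median log2 fold change of 1.25 at control and 0.26 under hypoxia, and 173 of them (63.4%) were above 0 there, against 49.5% of all probe sets. Only 38 (13.9%) were called higher again, against 0.791% of all probe sets, 18 were called lower, and 121 lay within 0.5 of zero. The 221 lower probe sets had a median of -1.25 at control and -0.77 under hypoxia, 202 (91.4%) were below 0 there, against 50.5% of all probe sets, 77 (34.8%) were called lower again, against 0.950%, and 0 were called higher. The difference between the oxygen levels was itself called for 456 probe sets (2.00%), 0.497% of all probe sets being higher and 1.51% lower. It was called towards WT or past it for 146 of the 273 higher (53.5%) and 42 of the 221 lower (19.0%). Because the control arrays chose these probe sets and also enter this difference, part of the shift towards WT is built in. The mean log2 signal of the 273 probe sets was 7.23 to 7.46 in WT control, 8.56 to 9.05 in AtHb1 control, 8.32 to 8.44 in WT hypoxia and 8.48 to 8.69 in AtHb1 hypoxia.

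**Figure D5:**
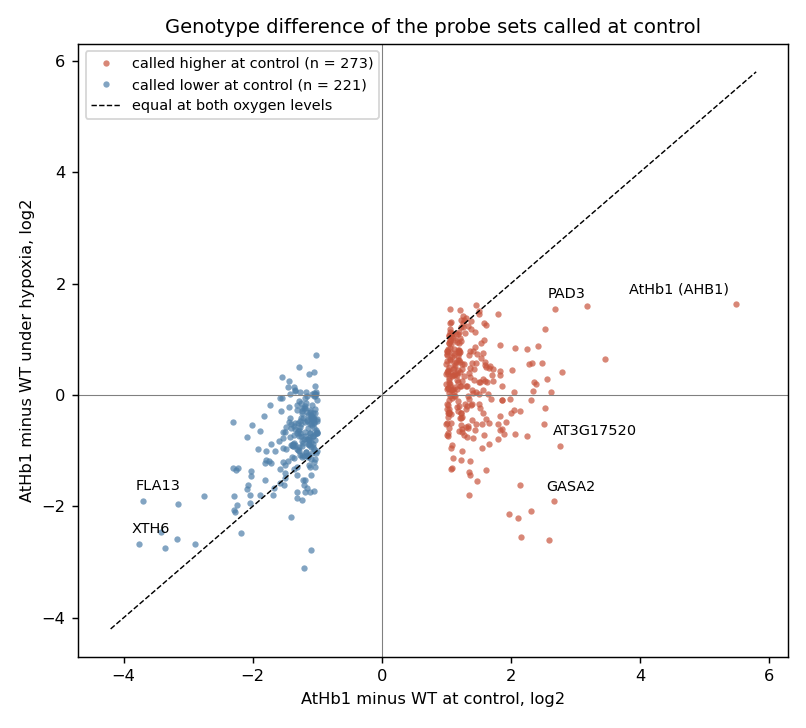
log2 fold change of AtHb1 against WT at control (horizontal axis) and under hypoxia (vertical axis) for the probe sets called higher (273) or lower (221) at control, with a dashed line where both are equal. The higher probe sets gather around a median of 0.26 under hypoxia, 18 of them called lower there, and the lower ones around a median of -0.77.

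The LEA genes were among those that changed. Their median log2 fold change was 1.02 at control and 0.03 under hypoxia, where 0 of 28 were called higher and 2 lower, and the difference between the oxygen levels was called lower for 11 of 28, against 1.51% of all probe sets. AT3G15670, a LEA gene, was called in opposite directions. It read 10.28, 10.27 and 8.00 in WT control, 10.28, 12.42 and 12.18 in AtHb1 control, 11.46, 11.54 and 11.56 in WT hypoxia and 9.20, 8.29 and 10.46 in AtHb1 hypoxia. WT and AtHb1 barely separated at control, the AtHb1 arrays varied widely at both oxygen levels, and the log2 fold changes were 2.11 and -2.20. The call at control was lost without AtHb1 control replicate 2 (1.71), AtHb1 control replicate 3 (1.84) or WT control replicate 3 (1.36). *GASA2*, *GASA3*, *EM1* and *XTH25*, with wide spread at control, were likewise called higher at control and lower under hypoxia, there at -1.91, -2.13, -2.09 and -2.60. The storage and oil body list had medians of 0.63 and -0.50. The core hypoxia list had 0.42 and 0.39 over the 24 genes named by the annotation, where the difference between the oxygen levels was called lower for 2 and higher for 1, and 0.58 and 0.08 over the 15 named by the study, where it was called lower for 3 and higher for 0. Over all probe sets that difference was called lower for 1.51% and higher for 0.497%.

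Other genes kept their difference or enlarged it, and those given here are examples picked for these values. *GER1* had -2.19 at control and -2.48 under hypoxia, *EXPA10* -2.27 and -2.10, *DGR2* -2.29 and -2.07, *XTH4* -1.88 and -1.79, *TIP2;1* -1.58 and -1.58, and *DFR* -1.08 and -1.04. Of the 221 lower probe sets, the difference was called further from WT for 2, *NIR1* and *NIA2*. *NIR1* read 10.61, 10.71 and 10.71 in WT hypoxia and 7.67, 7.51 and 7.52 in AtHb1 hypoxia, so the log2 fold change was -3.11 there against -1.20 at control (limma, adjusted p of the difference 1.1e-05). *NIA2* had -2.78 under hypoxia against -1.09. Some genes called higher at both oxygen levels had almost equal values, as did the RNA silencing genes *SDE3*, for an RNA helicase (1.46 and 1.62), and *RDR1*, for an RNA-dependent RNA polymerase (1.04 and 1.08), both named by the study, *RDR1* missing the limit without AtHb1 control replicate 2 (0.94) or WT control replicate 2 (0.94). *PAD3* had 2.68 and 1.54, and AT3G10020 of the core hypoxia list 1.25 and 1.29. The following were chosen after their values were seen: *CHR23*, a chromatin remodelling gene, had 1.501 and 1.45, *TPLATE*, an endocytosis gene, 1.34 and 1.23, *TAF2*, a general transcription factor gene, 1.23 and 1.35, *REV3*, a DNA polymerase gene, 1.17 and 1.09, *VPS15*, a vesicle sorting gene, 1.15 and 1.09, and *UVH3*, a DNA repair gene, 1.09 and 1.11, the last just under the limit (0.99) at control without AtHb1 control replicate 2. *VPS15* read 7.56, 7.56 and 7.55 in WT control and 8.63, 8.75 and 8.71 in AtHb1 control. The 3' minus 5' signal also separated the genotypes at both oxygen levels, with 1.38 to 1.46 in WT hypoxia and 1.75 to 1.97 in AtHb1 hypoxia, and its part in these differences was not tested.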

How the data were processed

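Siliques of WT and AtHb1 plants were profiled on 12 ATH1 arrays, 3 in each of 4 groups taken from the sample titles. The deposited values are log2 signals that the authors made with RMA from files of the Affymetrix MicroArray Suite (MAS5); the RMA version is not given in the sources used here. They were used as deposited. Present calls, a further criterion of the study, were not used here. limma 3.58.1 in R 4.3.3 was fitted with 1 mean per group over all 12 arrays, with the Benjamini-Hochberg adjustment over 22746 probe sets, and the code was tested on simulated data. Python 3.11.15 and pandas 2.3.3 handled tables. The array annotation named 1 gene for 13436 probe sets, the study's table alone named 490, and 8240 had no name. A gene with several probe sets was read from the one with the highest mean signal.

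The genes named are *AtHb1*, the 20 called probe sets with the largest rise and the 20 with the largest fall, each with 1 gene name and separate groups, and up to 6 called members of each of 34 gene lists, with uncalled members as examples. Members, lists and tests were chosen with earlier results of these data known. In total 26 alternatives were run, 24 of them across probe sets and 2 for list counts alone. An exact permutation test of 3 against 3 arrays cannot go below p = 0.1. The number of arrays limits the precision, and replicates are separate pools of siliques. Gene sequences were not used here.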

Additional observations from a re-analysis of the deposited data

Results flagged for a closer look

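The genotype difference changed between oxygen levels for 456 probe sets in limma, at an adjusted p under 0.05 and over 2-fold, and 22 of the genes named for their rank are among them. The values below are the genotype difference under hypoxia minus that at control, in log2 units. *AtHb1* had -3.87, and the late maturation genes had -2.81 (*SMP1*), -2.38 (*LEA4-5*), -3.67 (AT3G17520), -2.58 (AT5G44310) and -2.75 (*RAB18*). *GASA2* had -4.58, *CORI3* -1.34, *PCR2* -3.04, *CWLP* -2.19, *GRP-3* -2.39 and the desaturase gene AT1G43800 -1.73. The genes with no role given had -2.26 (AT2G19320), -1.90 (AT1G19020), -2.12 (AT5G66780), -2.28 (AT2G21820) and -1.43 (AT2G15960), and AT5G52750, of a heavy metal-binding family, had -1.74. Of those lower in AtHb1, AT5G50915 had 1.33, AT3G07340 1.83, *PRP2* 1.21 and *FLA13* 1.80. All 22 changed towards WT or past it, and the control arrays that ranked these genes also enter the difference.

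Signals outside the gene measurements differed too, as AtHb1 control minus WT control: the 3' minus 5' signal, over 6 control pairs, by 0.514, and the hybridization controls bioB, bioC and bioD by 0.798, 1.75 and 0.587 log2 units. Their part in the genotype differences was not tested.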

How the results depend on the processing

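Among 125 called probe sets named in the text, 89 kept their call under each of the 24 alternatives across probe sets that gave a value (4 had none where shared probe sets were left out), 36 lost it under at least 1 (32 without 1 array) and 0 changed sign. Leaving out WT control replicate 3 cost 18 of these calls, leaving out AtHb1 control replicate 2 cost 17 and leaving out AtHb1 control replicate 1 cost 7. Another 15 were lost in the fit without WT control replicate 3 and AtHb1 control replicate 1 together, an alternative chosen after seeing the data. Of 23 named probe sets that were not called, 4 near zero changed sign: *XERO2* without those 2 arrays (-0.014), *PDC2* with arrays centred (-0.0215), *HRE2* without WT control replicate 1 (-0.031, up to 0.16 without replicate 2) and *OLE3* without AtHb1 control replicate 2 (0.036, down to -0.14 without replicate 1). Centring each array on its median gave 225 higher and 268 lower calls in place of 273 and 221. With no fold limit 7558 probe sets were called (3986 higher, 3572 lower), and with a 1.5-fold limit 2010 (1152 and 858). The difference between oxygen levels was then called for 2793 and 1410. With no fold limit the core hypoxia list had 15 higher, expansins 9 lower, pollen markers 8 lower, and all lists 67 higher and 43 lower. With the 1.5-fold limit these were 8, 6, 4, 43 and 21. With members named by the study added they were 8, 6, 5, 62 and 51, and LEA genes had 22. Without 1 array in turn, calls numbered 426 to 553, higher 220 to 319, lower 190 to 262, the difference between oxygen levels 400 to 534, LEA 12 to 15, core hypoxia 4 to 5, expansins 3 to 4, pollen markers 1 to 3 (1 without AtHb1 control replicate 3), all lists 20 to 26 higher and 9 to 12 lower, and the *AtHb1* log2 fold change was 5.21 to 5.996. With the replicate number as a block, 494 probe sets were called at control and the difference between oxygen levels for 459. Correlations of same-numbered arrays were between -0.13 and 0.12, so no pairing by replicate number was seen. With 3 arrays per group these values cannot settle whether same-numbered samples shared a treatment run. The cause of these changes was not tested, other than the fold limit itself.

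Signal limits weak genes: 6264 probe sets had a mean log2 signal below 6 in all groups, and 2 of them were called. Each difference rests on 3 pools per group and on 1 transgenic line, and array quality measures lie with the genotype.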
